A study of Rattus norvegicus with 2 samples.

Results

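The transcription factors that set up the neuron classes of the spinal cord (SC) were followed in rat lumbar cord after chronic constriction injury (CCI). The list named 42 genes. Each gene was read from a probe set that the platform annotation assigns to exactly 1 gene symbol, and where a gene had several such probe sets, the one with the highest mean over both arrays was to be taken. Of the 42 factors, 40 were measured among 18171 genes, each by 1 probe set, and Mnx1 and Prdm8 were not analysed here. Prrxl1 is carried under its current symbol Drgx.

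The CCI array held RNA of segments L4-L6 from 3 adult male Sprague-Dawley rats of 180 to 200 g, taken on day 10 after the left sciatic nerve had been loosely tied with 4 ligatures. The Sham array held RNA of the same segments, day, sex, strain and number of rats, with the nerve exposed and left untied. In both groups the RNA of the rats was mixed before hybridisation, so that there was 1 array per group, no replicate error and no test, and the spread among rats is unknown. Values are log2 expression on Rat Gene 2.0 ST arrays, a difference is CCI minus Sham on that scale, and the fold threshold of the study methods, 1.5-fold, is used only to count.

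During development, progenitors arranged from dorsal to ventral give rise to neuron classes, each defined by a small set of homeodomain, basic helix-loop-helix, forkhead, zinc-finger or nuclear receptor proteins. Dorsal classes become the excitatory and inhibitory interneurons of the dorsal horn, which receive touch, itch and pain input, and ventral classes become motor neurons and the interneurons of locomotion. These roles were described mainly in mouse and chick embryos, and many of the factors stay on at lower levels in adult neurons. In tissue RNA, fewer cells of a class and less RNA per cell cannot be told apart.

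The class factors differed little between the arrays, and they spread as widely as genes in general. The median difference of the 40 was -0.02, against -0.01 over all genes, and the SD of the differences was 0.254 over the factors and 0.255 over all genes. En1 alone was higher in CCI past 1.5-fold, 1 of 40 factors against 1.64% of all genes, and Zfhx4 alone was lower past it, 1 of 40 against 1.14%. No factor passed 2-fold. In all, 23 of 40 factors (57.5%) were lower in CCI by any amount, against 52.4% of all genes, and 14 of the 40 differed by less than 0.1 on the log2 scale. The counts past 1.5-fold and the count lower by any amount lie near the shares over all genes. Shares of all genes past 2-fold or within 0.1 were not counted.

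As a rough background level, the 95th percentile of 1344 olfactory and vomeronasal receptor genes was taken, which have no known role in the SC. It was 4.36 in CCI and 4.44 in Sham. By this measure 35 of the 40 factors were above background in both arrays. Tlx3 was above it in CCI only, and Lhx1, Sim1, Tal1 and Tfap2b were above it in neither array, so that no fold is given for them.

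**Figure D1:**
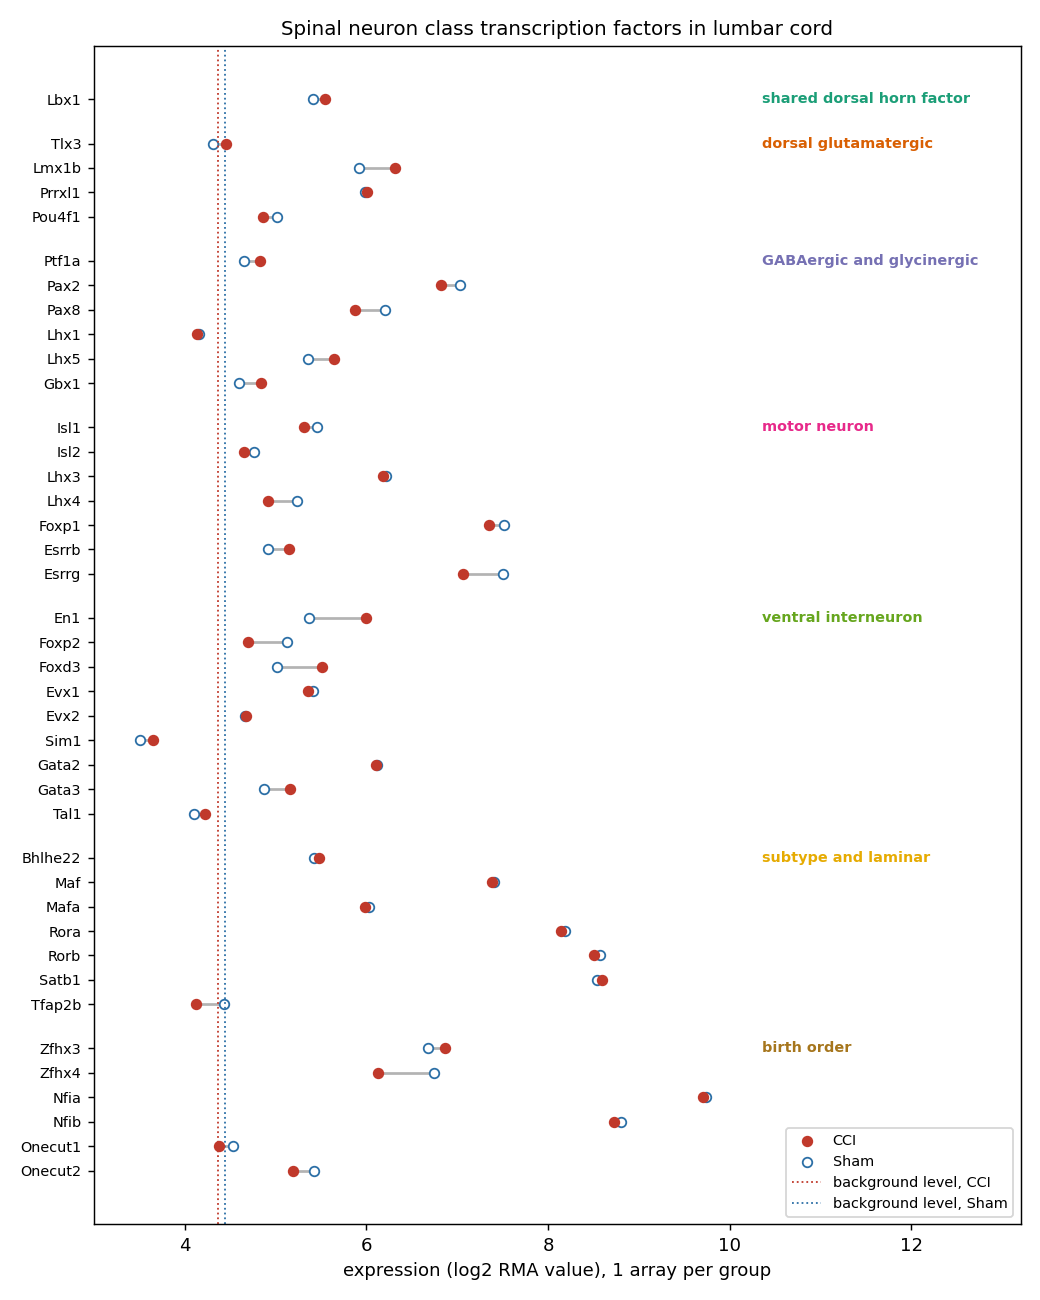
Expression (log2 RMA value) of the 40 measured class factors by role group, with a filled circle for the CCI array and an open circle for the Sham array. Dotted lines mark the background levels of 4.36 in CCI and 4.44 in Sham, and most pairs of circles lie close together, with En1, Foxd3, Foxp2, Esrrg and Zfhx4 the furthest apart.

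Promoter sequences of the 4 factors with the largest differences that have an entry in the RefSeq promoter table (GRCr8 assembly) are shown first, because En1, Foxd3 and Lmx1b were the furthest above Sham and Esrrg was the furthest below among the factors with an entry. Each run gives the 250 bases before the annotated start, on the strand of the gene, with CpG dinucleotides in capitals. En1 lies at chr13:34303434-34303683 on the plus strand, Foxd3 at chr5:119450282-119450531 on the plus strand, Lmx1b at chr3:37338558-37338807 on the minus strand and Esrrg at chr13:101744485-101744734 on the plus strand.
En1: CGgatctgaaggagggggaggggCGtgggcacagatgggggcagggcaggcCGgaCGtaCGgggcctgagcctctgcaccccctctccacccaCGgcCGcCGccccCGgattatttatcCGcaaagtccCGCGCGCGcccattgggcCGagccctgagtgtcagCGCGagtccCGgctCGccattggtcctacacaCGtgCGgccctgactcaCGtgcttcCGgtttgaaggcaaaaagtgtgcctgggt
Foxd3: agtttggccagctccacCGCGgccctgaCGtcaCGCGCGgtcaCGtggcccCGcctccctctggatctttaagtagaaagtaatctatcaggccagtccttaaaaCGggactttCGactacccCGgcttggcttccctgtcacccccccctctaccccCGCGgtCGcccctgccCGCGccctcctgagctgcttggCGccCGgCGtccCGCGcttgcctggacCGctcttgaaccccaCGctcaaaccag
Lmx1b: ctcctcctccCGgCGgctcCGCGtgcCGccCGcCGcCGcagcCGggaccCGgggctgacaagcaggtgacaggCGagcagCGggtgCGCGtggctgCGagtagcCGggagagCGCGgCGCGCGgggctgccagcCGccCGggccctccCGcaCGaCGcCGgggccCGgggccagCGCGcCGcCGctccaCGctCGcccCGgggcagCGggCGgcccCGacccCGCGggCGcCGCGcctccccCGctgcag
Esrrg: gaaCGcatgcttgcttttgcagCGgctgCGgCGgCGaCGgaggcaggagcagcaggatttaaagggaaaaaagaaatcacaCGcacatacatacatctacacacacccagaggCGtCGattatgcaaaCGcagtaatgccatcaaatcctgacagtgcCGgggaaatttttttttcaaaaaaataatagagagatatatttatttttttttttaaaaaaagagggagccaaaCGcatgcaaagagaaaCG

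The En1 and Foxd3 windows held 23 CpG each, that of Lmx1b 44 and that of Esrrg 13. The Esrrg window was also the poorest in G and C of the 4, at 42.4%, with long runs of A and T, against 84.4% for Lmx1b. Over the 31 measured factors with an entry, the median was 19 CpG and 63.2% GC, against 6 CpG and 52% GC over the 27457 windows of the table. CpG-rich start sites were found in factors above Sham, such as Lmx1b (0.39), and below it, such as Pou4f1 (-0.15, 33 CpG) and Pax2 (-0.22, 25 CpG). The factors furthest below with an entry, Esrrg (-0.44, 13 CpG) and Pax8 (-0.34, 9 CpG), had fewer CpG than the median of the 31. So did factors above Sham, such as Esrrb (0.23, 7 CpG) and Gbx1 (0.25, 16 CpG), while Lhx4 (-0.32, 19 CpG) lay at that median. A relation between CpG and the difference was not tested. Short motifs bound by the families of these factors were searched on both strands. The homeodomain core TAATTA was found in 1 of the 31 windows, that of Nfib, against 4.93% of all windows. The E-box CAGCTG was found in 3, those of Pou4f1, Foxp1 and Gata3, against 12.0% of all windows. The nuclear receptor half-site AGGTCA was found in 1, that of Tlx3, against 13.7%, and the GATA letters AGATAA in 2, those of Isl1 and Evx2, against 10.1%. None of the 4 windows printed above holds any of these motifs, which says only that the letters are not in these 250 bases.

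Lbx1, the homeodomain factor of the late dorsal classes that build most of the dorsal horn, was at 5.54 in CCI and 5.41 in Sham, a 1.09-fold higher value in CCI. Of the 500 genes closest in mean level, 59.2% differed by at least as much.

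The factors of glutamatergic dorsal horn neurons went both ways, with a median of 0.09, 3 of 4 above Sham and 1 below, against 47.6% of all genes above. With each array centred on its own median, 2 of 4 were below, against 61.6% of all genes. Lmx1b, a LIM homeodomain factor that excitatory dorsal horn neurons need to form and to be maintained, was at 6.31 in CCI and 5.92 in Sham, or 1.31-fold higher. Among the 500 genes nearest in level, 11.2% differed by at least as much. Prrxl1, a paired homeodomain factor of nociceptive sensory neurons and of their targets in the superficial dorsal horn, was at 6.01 in CCI and 5.99 in Sham, so the arrays did not part on it, and its sign turned when each array was centred on its own median. Tlx3, the selector that favours the glutamatergic over the GABAergic fate, was at 4.46 in CCI and 4.31 in Sham, with the Sham value below background and a bound of hardly more than 1-fold, which does not establish a difference. Pou4f1, which encodes the POU factor Brn3a, was at 4.87 in CCI and 5.02 in Sham, 1.11-fold lower.

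The factors of inhibitory dorsal horn neurons went both ways. Of the 6, 3 were above and 3 below Sham, with a median of 0.08. The pair of paired-box factors was lower in CCI. Pax2, which most GABAergic dorsal horn neurons carry into adult life, was at 6.82 in CCI and 7.03 in Sham, 1.16-fold lower, and Pax8, its relative in the same neurons, was at 5.87 in CCI and 6.21 in Sham, 1.27-fold lower. The other 3 factors above background were higher. Ptf1a, the helix-loop-helix factor that starts the GABAergic programme, was at 4.83 in CCI and 4.65 in Sham (1.13-fold). Lhx5, a LIM homeodomain factor that helps to keep Pax2 and the inhibitory transmitter genes on, was at 5.64 in CCI and 5.36 in Sham (1.22-fold). Gbx1, a homeodomain factor of a subset of these neurons, was at 4.84 in CCI and 4.59 in Sham (1.19-fold). Lhx1, the partner of Lhx5, was below background in both arrays, at 4.14 in CCI and 4.15 in Sham. Over the 2 members at or above the median level of all genes, which are Pax2 and Pax8, the median was -0.28, the opposite sign to that of the 6.

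Genes of transmitter synthesis and transport mostly stood lower. All 4 measured genes of GABA and glycine transmission were below Sham, with a median of -0.40. These 4 lay at or above the median level of all genes, where 58.3% of genes were lower. Of the pan-neuronal markers, 14 of 16 were lower too. The GABA-synthesising enzyme Gad1 was at 7.82 in CCI and 8.47 in Sham (1.56-fold lower), the glycine transporter Slc6a5 at 9.40 in CCI and 9.90 in Sham (1.42-fold), Gad2 at 8.46 in CCI and 8.76 in Sham (1.23-fold), and the vesicular transporter Slc32a1 at 8.20 in CCI and 8.30 in Sham (1.08-fold). Pax2 and Pax8 thus lay on the same side as the transmitter genes, and Ptf1a, Lhx5 and Gbx1 on the other. On the excitatory side, the vesicular glutamate transporter Slc17a6 was at 9.32 in CCI and 9.44 in Sham (1.09-fold lower), while Slc17a7 was at 4.56 in CCI and 4.07 in Sham, below background in Sham, with a bound of 1.09-fold. Slc1a1, a glutamate transporter of neurons, was 1.24-fold lower, and Slc17a8 was 1.08-fold lower.

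Markers of the dorsal horn neurons themselves went both ways in either class. Of 14 measured markers of excitatory dorsal horn neurons, 10 were lower in CCI and 4 higher, with a median of -0.16, against 52.4% of all genes lower. Past 1.5-fold was 1 of them, the gastrin-releasing peptide receptor Grpr, at 4.37 in CCI and 5.02 in Sham (1.57-fold lower). The CCI value of Grpr lay just above background. The substance P receptor Tacr1 was 1.49-fold lower, somatostatin (Sst) 1.32-fold lower and neuromedin U (Nmu) 1.31-fold higher. Of 10 markers of inhibitory dorsal horn neurons, 5 were lower and 5 higher, with a median of -0.01. Galanin (Gal) was at 8.04 in CCI and 7.42 in Sham (1.54-fold higher), and the dynorphin gene Pdyn was 1.36-fold higher, while the somatostatin receptor Sstr2 was 1.23-fold lower and the channel subunit gene Kcnip2 was 1.20-fold lower.

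Motor neuron factors were mostly lower in CCI. Of the 7 measured, 6 were below Sham, against 52.4% of all genes, with a median of -0.15, and none passed 1.5-fold. Lhx3 was below by only -0.026. Subtraction of the trend of the difference on level left 5 of 7 below, against 49.6% of all genes, as Lhx3 changed sign. With each array centred on its own median 6 of 7 were below, against 61.6%. Esrrg, an orphan nuclear receptor that in mouse is strong in the gamma motor neurons of muscle spindles, was at 7.06 in CCI and 7.502 in Sham, 1.36-fold lower. Of the 500 genes nearest in level, 5% differed by at least as much. Lhx4, a LIM homeodomain factor that acts with Lhx3 in motor neuron formation, was at 4.91 in CCI and 5.23 in Sham (1.25-fold lower), whereas Lhx3 was at 6.19 in CCI and 6.21 in Sham (1.02-fold).

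The remaining motor neuron factors were closer to Sham. Foxp1, the forkhead factor that sets apart the motor neurons of limb muscles and is also expressed in many other cells, was at 7.35 in CCI and 7.51 in Sham (1.12-fold lower). Isl1, required for motor neuron formation and shared with sensory neurons and a dorsal class, was at 5.31 in CCI and 5.46 in Sham (1.11-fold lower), and Isl2 was at 4.65 in CCI and 4.77 in Sham (1.08-fold). Esrrb, a relative of Esrrg, was the exception, at 5.14 in CCI and 4.91 in Sham (1.17-fold higher).

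Of 11 measured markers of mature motor neurons, 7 were lower in CCI (63.6%) and 4 higher, with a median of -0.20. At or above the median level, where 10 of the 11 lay, 58.3% of all genes were lower, so the count lies near that share. Chat, which makes acetylcholine, was the only marker past the threshold, at 6.03 in CCI and 6.78 in Sham (1.68-fold lower). The peptide receptor Vipr2 was 1.35-fold lower and the choline transporter Slc5a7 1.23-fold lower, while the peptide gene Calcb was 1.32-fold higher. Among pan-neuronal markers, 14 of 16 lay below Sham (87.5%, median -0.12), all 16 above background and none past 1.5-fold. Each lay at or above the median level, where 58.3% of all genes were lower. Elavl4 (1.33-fold), Syt1 (1.29-fold) and Eno2 (1.25-fold) were lowest, and the growth cone gene Gap43 was 1.27-fold higher. The part of the pan-neuronal difference in the values of the motor neuron factors was not tested.

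The factors of ventral interneurons ranged from -0.43 to 0.63, and both ends belonged to the V1 class of inhibitory ventral interneurons. En1, the homeodomain factor that defines V1 neurons, was at 5.997 in CCI and 5.36 in Sham, or 1.55-fold higher. Of the 500 genes nearest in level, 2.4% differed by at least as much. The margin over the threshold was small. The median over all probe sets was 0.051 higher on the CCI array, and with each array centred on its own median the difference was 0.582, just under the threshold of 0.585 on the log2 scale. Foxd3, a forkhead factor of V1 neurons and of a dorsal class, was also above Sham, at 5.51 in CCI and 5.02 in Sham (1.40-fold). Foxp2, the forkhead factor of a large subset of V1 neurons, lay on the other side, at 4.70 in CCI and 5.13 in Sham (1.35-fold lower). The V1 factors therefore did not share a direction.

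Of the other ventral classes, the excitatory V3 factor Sim1 was below background in both arrays, at 3.65 in CCI and 3.51 in Sham. The V0 factors were close to Sham, with Evx1 at 5.35 in CCI and 5.41 in Sham and Evx2 at 4.67 in CCI and 4.66 in Sham. The sign of Evx2 turned under both other scalings. The V2b factors are shared with blood and vessel cells. Gata3 was at 5.16 in CCI and 4.88 in Sham (1.22-fold higher), Gata2 at 6.11 in CCI and 6.12 in Sham, nearly level, and the helix-loop-helix factor Tal1 was below background in both arrays, at 4.22 in CCI and 4.10 in Sham. The median of the 9 ventral factors was 0.12 with 6 above Sham, against 47.6% of all genes, but without Sim1 and Tal1 the median was 0.011 over 7 factors.

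Cell types that also use these GATA and Tal1 factors moved in different ways. For scale, 52.4% of all genes were lower and 47.6% higher. Of 9 endothelial markers, 8 lay below Sham (median -0.24), all 9 above background in both arrays. Vwf (1.26-fold), Tek (1.25-fold), Flt1 (1.21-fold) and Tie1 (1.19-fold) led. Of 11 T lymphocyte markers, 9 were higher, with a median of 0.13. Only 3 were above background in both arrays, Il7r (1.47-fold higher), Cd5 (1.24-fold) and Bcl11b (1.04-fold). Mast cell and blood progenitor markers were higher in 6 of 9, with a median of 0.18, and 3 of the 9 were above background in both arrays. Their part in the values of Gata2, Gata3 and Tal1 was not tested.

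Factors that divide dorsal horn neurons into subtypes and laminae were almost level. Their median was -0.04, and 5 of 7 were below Sham, against 52.4% of all genes. With the trend on level subtracted 4 of 7 were below, against 49.6%. Rora and Rorb, nuclear receptors of touch circuits in the deeper dorsal horn, were at 8.15 in CCI and 8.19 in Sham and at 8.50 in CCI and 8.57 in Sham, folds of 1.03 and 1.05. Maf, a leucine-zipper factor of deep dorsal horn neurons, was at 7.38 in CCI and 7.40 in Sham, and its relative Mafa was at 5.98 in CCI and 6.02 in Sham. The microglia of the same tissue, which also express Maf, stood far apart from this, since each of 15 measured microglia markers stood above Sham and 10 passed 1.5-fold. Their median was 0.77, and C1qa (3.36-fold), C1qb (3.02-fold), C1qc (2.998-fold) and Aif1 (2.65-fold) led. Their part in the value of Maf was not tested. Satb1, a chromatin organiser of neurons and thymocytes, was at 8.59 in CCI and 8.53 in Sham (1.04-fold higher). Bhlhe22, a helix-loop-helix factor needed by inhibitory neurons that restrain itch, was at 5.48 in CCI and 5.42 in Sham (1.04-fold). Tfap2b, of the AP-2 family, was below background in both arrays, at 4.13 in CCI and 4.43 in Sham.

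Some factors mark when a neuron was born, early for Onecut genes, then Zfhx and last Nfi genes in mouse. Of these 5 of 6 were below Sham, against 52.4% of all genes, with a median of -0.12. Zfhx4, a large zinc-finger and homeodomain protein, was at 6.13 in CCI and 6.75 in Sham, 1.53-fold lower, and 2.6% of the 500 genes nearest in level differed by at least as much. After subtraction of the trend on level its difference was -0.56, within the threshold. Its relative Zfhx3 was the one member above Sham, at 6.87 in CCI and 6.68 in Sham (1.14-fold). Onecut2 was at 5.19 in CCI and 5.43 in Sham (1.18-fold lower), and Onecut1 was at 4.38 in CCI and 4.53 in Sham (1.12-fold), with the CCI value just above background. Nfia and Nfib, which astrocytes also use, were nearly level, at 9.71 in CCI and 9.74 in Sham and at 8.72 in CCI and 8.80 in Sham. Of 10 astrocyte markers 5 were higher and 5 lower, with a median of 0.02, and Gfap was 1.28-fold higher. Their part in the values of Nfia and Nfib was not tested.

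**Figure D2:**
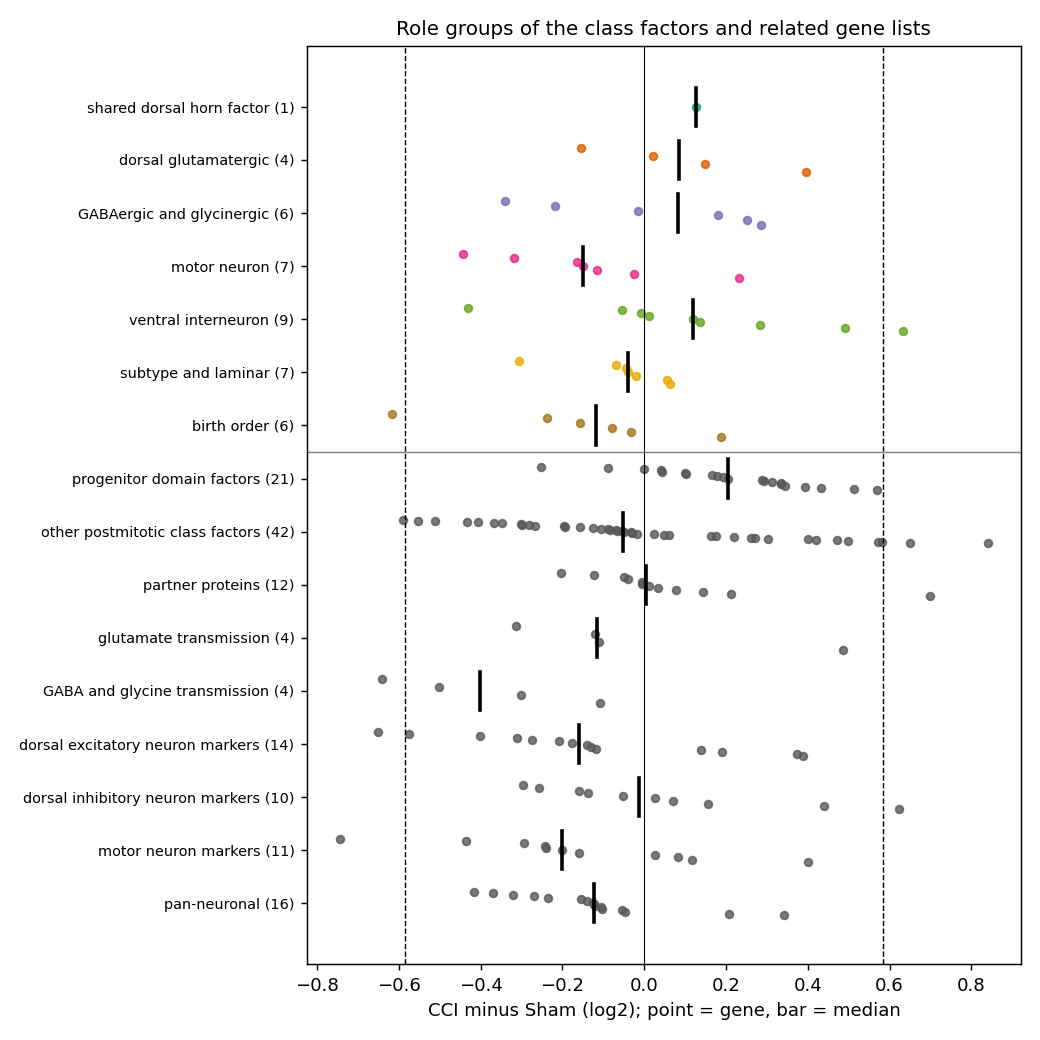
Difference of CCI minus Sham (log2) for each gene (points) and the median of each list (bars), with the 7 role groups of the class factors above the horizontal line and 8 related lists and the pan-neuronal list below it. Dashed lines mark 1.5-fold. Of the class factors only En1 and Zfhx4 lie outside them. The GABA and glycine transmission genes lie to the left of 0, as do 52.4% of all genes. To the right lie 19 of 21 progenitor domain factors, against 47.6% of all genes.

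The direction of the factors was also counted by level. Of the 17 factors at or above the median level of all genes, 5.83, 13 were lower in CCI (76.5%), against 58.3% of the 9086 genes in that range. Of the 23 factors below it, 13 were higher (56.5%), against 53.5% of genes below it. With the trend on level subtracted, 10 of the 17 brighter factors were lower, against 49.9% of genes, and with each array centred on its median 14 of 17, against 68.4%. The median difference of the 17 brighter factors, -0.041, was that of the genes in the same range, -0.041. The mean was lower over the factors, -0.085, than over those genes, -0.041.

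**Figure D3:**
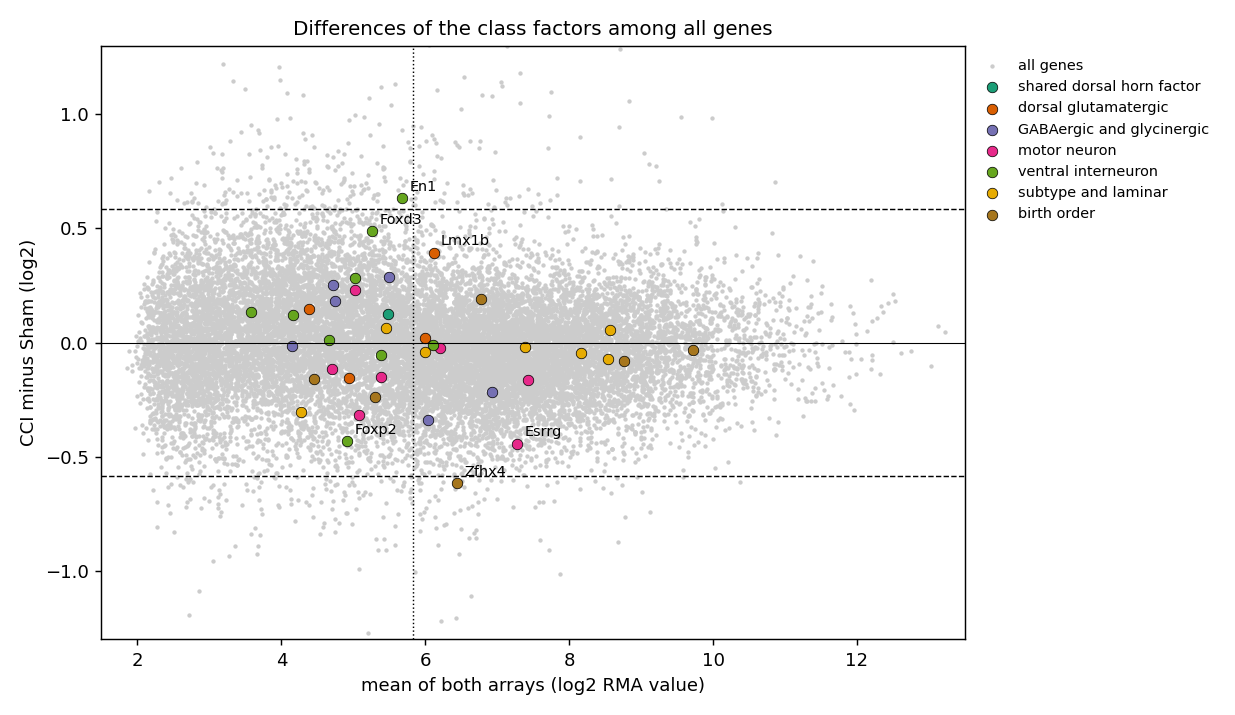
Difference of CCI minus Sham (log2) against the mean of both arrays (log2 RMA value) for all genes (grey) and the 40 class factors (coloured by role group). Dashed lines mark 1.5-fold and the dotted line the median level of 5.83, and 25 genes beyond a difference of 1.3 are not drawn. The factors lie within the cloud of all genes, with En1 just above the upper line and Zfhx4 just below the lower.

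Close relatives among the factors did not always lie on the same side. The 26 factors that form 13 pairs of 1 gene family, grouped after the values were seen, had a median gap of 0.12 within the pair. In 8 pairs both factors were lower in CCI, in no pair were both higher, and in 5 pairs the signs were opposite. Singly, 57.5% of the 40 factors and 52.4% of all genes were lower, but outside the pairs only Pou4f1 and Tfap2b were. The pairs thus hold nearly all of the lower factors, and no share was counted for pairs of other genes. The counts of pairs are therefore not read as a trait of families. Among the pairs with both lower, each difference of Maf and Mafa, Rora and Rorb, and Nfia and Nfib was smaller than 0.1. With the trend on level subtracted, both were lower in 7 pairs and higher in 1, and with the arrays centred both were lower in 9. The gap was widest for Zfhx3 and Zfhx4 (0.81) and for Esrrb and Esrrg (0.67), followed by Lhx1 and Lhx5, of which Lhx1 was below background. It was smallest for Maf and Mafa (0.022), Rora and Rorb (0.026) and Isl1 and Isl2 (0.034).

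**Figure D4:**
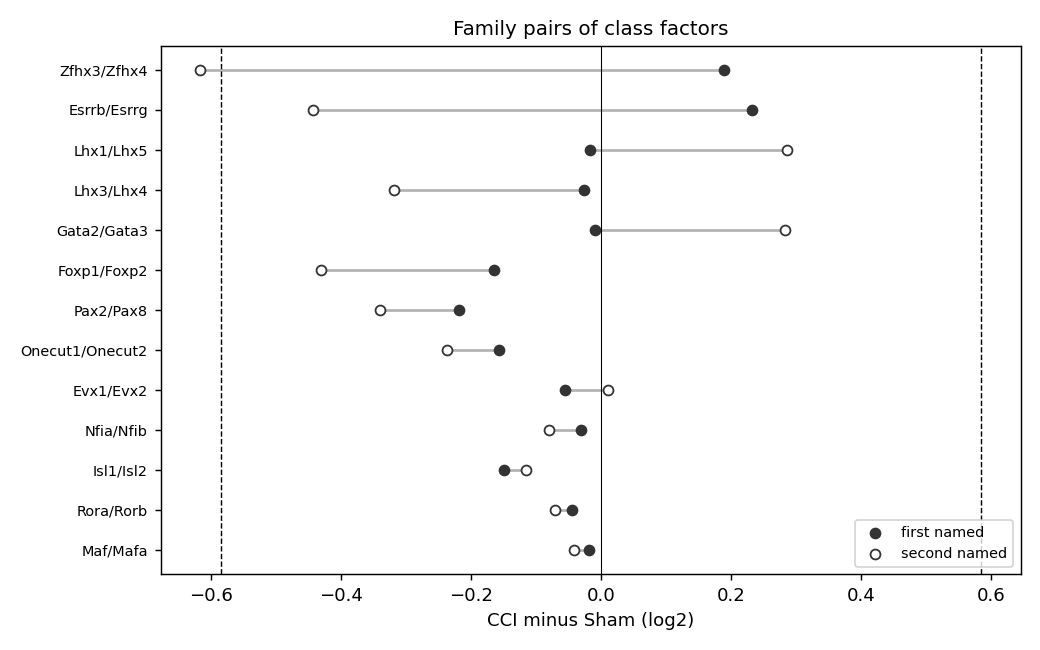
Difference of CCI minus Sham (log2) for the 2 factors of each of 13 family pairs, ordered by the gap between them, with a filled circle for the first named and an open circle for the second. Dashed lines mark 1.5-fold. Zfhx3 and Zfhx4 lie furthest apart, at 0.19 and -0.62, while both factors of 8 pairs lie below 0. The pairs were grouped after the values were seen and hold nearly all of the lower factors.

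Factors that act before the class factors, in the progenitors, were shifted towards higher values. Of 21 measured, 19 were above Sham and 2 below, against 47.6% of all genes above, with a median of 0.21 and none past 1.5-fold. The 19 include Olig3, at a difference of 0.00019. Below the median level of all genes 14 of 15 were higher, against 53.5% of genes there, with a median of 0.21. At or above it 5 of 6 were higher, against 41.7%, with a median of 0.25. With each array centred on its median 16 of the 21 were above Sham, with a median of 0.15, and with the trend subtracted 17. For comparison, 61.6% of all genes were below Sham after centring and 49.6% after subtraction of the trend. Sox2, which marks progenitors and in the adult cord glia and ependymal cells, was at 8.17 in CCI and 7.66 in Sham (1.43-fold higher). Pax6 was at 5.30 in CCI and 4.87 in Sham (1.35-fold). Foxa2, at 4.52 in CCI and 3.96 in Sham, and Irx3, at 4.52 in CCI and 4.12 in Sham, were below background in Sham, with bounds of only 1.06-fold each. Only 13 of the 21 were above background in both arrays.

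Other factors of postmitotic spinal neurons were spread widely, with 17 of 42 higher in CCI, 25 lower and a median of -0.05. Over the 17 at or above the median level it was -0.28. Sp8, a zinc-finger factor, was at least 1.699-fold higher, at 5.20 in CCI and 4.36 in Sham, with the Sham value below background. Pou2f2 was at 5.32 in CCI and 4.67 in Sham (1.57-fold higher) and Pou4f2, a relative of Pou4f1, at 5.10 in CCI and 4.51 in Sham (1.497-fold). Ebf1, a helix-loop-helix factor of differentiating neurons and of B cells, was at 7.79 in CCI and 8.38 in Sham (1.504-fold lower). Its relatives Ebf2 and Ebf3, named after their values were seen, were at 5.98 in CCI and 6.53 in Sham and at 7.43 in CCI and 7.83 in Sham, so that all 3 Ebf genes listed were lower in CCI.

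Proteins that bind the class factors were level as a list, with 6 of 12 higher and 6 lower and a median of 0.0037. Lmo1, a LIM-only protein that competes for the partner of LIM homeodomain factors, was the exception, at 6.65 in CCI and 5.96 in Sham (1.62-fold higher). Ldb1, that partner itself, was at 8.39 in CCI and 8.60 in Sham (1.15-fold lower). Cbfa2t3, at 4.50 in CCI and 4.28 in Sham, was below background in Sham, and Tcf3, the general partner of helix-loop-helix factors, was 1.11-fold higher.

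Sensory ganglia express Isl1, Pou4f1, Prrxl1 and Tlx3 too and could enter the dissection. Of 12 ganglion markers, 6 were higher in CCI and 6 lower, with a median of 0.03, and 10 were above background in both arrays. The sodium channel gene Scn9a was 2.49-fold higher, Th 1.24-fold lower and Prdm12 1.23-fold lower, while Scn10a was at 4.51 in CCI and 4.26 in Sham, below background in Sham. Their part in the values of the 4 factors was not tested. Among the remaining cell types, all 6 markers of oligodendrocyte precursors lay below Sham (median -0.23), and none passed 1.5-fold. Each lay at or above the median level, where 58.3% of all genes were lower. Pdgfra was 1.36-fold and Cspg4 1.22-fold lower. Medians were 0.07 over 11 oligodendrocyte, -0.18 over 7 Schwann cell, -0.08 over 12 meningeal and fibroblast and 0.095 over 7 ependymal markers.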

How the data were processed

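Array data of both groups were used as the authors deposited them. Per the labels and the study methods, total RNA was hybridised to Rat Gene 2.0 ST arrays, and the deposited values are on the log2 scale, computed by the authors with RMA (robust multi-array averaging), that is background correction, quantile normalisation and summary over probes. The medians of the deposited arrays still differed by 0.051 (CCI higher), and RMA pulls low values together, so folds of dim factors may be understated. Of 28879 probe sets, 18511 had 1 gene in the platform annotation, 575 several and 9793 none. Probe sets were joined by Entrez ID into 18171 genes, with current symbols from RefSeq GRCr8 for 18394 probe sets and the platform symbol for 117. The measure was CCI minus Sham, with 1 array per group, no test and a precision limited by the number of arrays.

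The factors and lists were chosen with earlier results of these data known. All measured factors are named, and from each other list at most the 4 genes with the largest differences of which at least 1 value is above background. Ebf2 and Ebf3 are named besides, chosen after their values were seen. A fold against a value below background is a bound over the background level of that array. The 500 nearest genes are those closest in mean level. Alternatives were 2-fold, a floor on level, a background filter, subtraction of a lowess trend (span 0.3), the mean over or a count of all probe sets, centring, means and background percentiles of 90 and 99. Functions were tested on simulated data. Python 3.11.15, pandas 2.3.3 and statsmodels 0.14.6 were used. Promoter windows are RefSeq GRCr8, and no source used here names the build of the platform annotation.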

Additional observations from a re-analysis of the deposited data

How the results depend on the processing

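The single factors past 1.5-fold in each direction were not stable. Past 2-fold there were 0 higher and 0 lower. With only genes at or above the median level, 0 factors were higher past 1.5-fold and 13 of 17 were lower by any amount. With the arrays centred 0 were higher past 1.5-fold (En1, 0.582), and with the trend on level subtracted 0 were lower past it (Zfhx4, -0.56). With the floor on level the medians were 0.21 over 2 dorsal glutamatergic, -0.28 over 2 inhibitory and -0.0084 over 1 ventral interneuron factor, and without genes below background in both arrays the ventral median was 0.011 over 7. With the 99th percentile of the receptor genes as background level, 19 of 40 factors were above it in both arrays. Lhx3, Evx2, Gata2 and Maf changed sign under the trend, and Prrxl1 and Evx2 under centring. The other factors kept their sign under both, and the largest shift was 0.058. Centring takes the same 0.051 from each difference, so only factors above Sham by less than that could turn. The probe set alternatives could change no factor, because each was measured by 1 probe set. The medians of the inhibitory and ventral interneuron factors, the partner proteins and the dorsal inhibitory markers changed sign with the floor on level, those of the dorsal inhibitory markers with the trend, the partner proteins with centring, and the other postmitotic factors (0.0081) and dorsal inhibitory markers (0.041) with the mean. No paired analysis was possible because each group is 1 array. Dim factors near the receptor level limit what can be read, and no replicate gives an error for any value.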
